A study of Rattus norvegicus with 6 samples.

Results

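Transcripts of 45 genes of the proteasome, the protease that degrades ubiquitin-tagged proteins, were followed in rat pancreas after crush injury. Of 34001 genes in the expression table, 47 carried a symbol of the series Psma, Psmb, Psmc, Psmd, Psme, Psmf or Psmg followed only by a number, and 45 of them had a mean of at least 1 TPM over the 6 libraries. TPM is transcript abundance scaled for gene length and brought to the same total in every library, so levels of different genes can be compared. The 2 genes under that limit were Psmb11, a catalytic subunit of thymus, at a mean of 0 TPM, and Psma8, an alpha subunit of testis, at a mean of 0.0133 TPM. The lowest genes above it were Psme3 at a mean of 3.62 TPM and Psme4 at 5.24 TPM. The 45 comprised 6 alpha subunits, 4 structural beta subunits, 3 constitutive and 3 inducible catalytic subunits, 6 ATPases and 14 non-ATPase subunits of the regulatory particle, 4 activator subunits, the inhibitor Psmf1 and 4 assembly chaperones. Classes followed the symbols, so assembly chaperones with a Psmd symbol, such as Psmd9 and Psmd10, count among the non-ATPase subunits. The alpha subunit gene Psma3 was not analysed here.

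All 6 animals were Sprague-Dawley rats, 2 per group, and no label gives their age or sex. Controls were opened at the abdomen, had the gland turned over with swabs, and received 1 ml of saline by tail vein. TP stands for traumatic pancreatitis: the gland was struck and squeezed by an impactor at 3 cm2 and 10 kg, again with 1 ml of saline. TP+hucMSC-Exs rats had the same injury and received 10 μg per 100 g of exosomes, vesicles secreted by human umbilical cord mesenchymal stem cells. Every pancreas was collected 24 h after the operation. No group received exosomes without injury.

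The core particle of the proteasome is a barrel of alpha rings around beta rings, and only 3 kinds of beta subunit cut peptides. The regulatory particle caps the barrel: its ATPases unfold substrates, and its non-ATPase subunits bind and remove ubiquitin. Interferon and leukocytes bring in the inducible subunits Psmb8, Psmb9 and Psmb10 in place of Psmb5, Psmb6 and Psmb7, which gives the immunoproteasome, a source of peptides for the transporter Tap1 and Tap2 and for MHC class I. The pancreas is rich in acinar cells, which make digestive enzymes at a very high rate and depend on the proteasome to clear misfolded secretory proteins.

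The starts of the inducible genes, of the neighbouring transporter genes and of the constitutive counterparts are shown because these pairs and neighbours are compared with one another in the values given later. Promoters came from RefSeq on the rat build GRCr8 and were matched by symbol for 41 of the 45 genes; each was searched over 300 bases, 250 before and 50 after the annotated start, on both strands. In RefSeq gene order Tap2, Psmb8, Tap1 and Psmb9 stand next to one another on chromosome 20. The stretches begin 150 bases before the start, run at most 10 bases past it, and stop earlier where another transcript of the gene begins upstream. They lie at chr20:4657022-4657181 (minus strand) for Psmb8, chr20:4668850-4668981 (plus) for Psmb9, chr19:50743283-50743442 (minus) for Psmb10, chr20:4668534-4668693 (minus) for Tap1, chr20:4652287-4652446 (minus) for Tap2, chr15:32047370-32047529 (minus) for Psmb5, chr10:55737738-55737881 (plus) for Psmb6 and chr3:42827461-42827620 (minus) for Psmb7. Capitals mark GAAANNGAAA, the core of the interferon stimulated element, in the first 5 where present and TGACNNNGC, the core of the antioxidant element, in Psmb5 and Psmb6, on either strand. Psmb7 had neither, and its capitals mark CCAAT.
Psmb8: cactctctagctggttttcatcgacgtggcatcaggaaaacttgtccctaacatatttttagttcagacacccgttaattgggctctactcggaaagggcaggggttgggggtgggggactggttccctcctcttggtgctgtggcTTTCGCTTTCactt
Psmb9: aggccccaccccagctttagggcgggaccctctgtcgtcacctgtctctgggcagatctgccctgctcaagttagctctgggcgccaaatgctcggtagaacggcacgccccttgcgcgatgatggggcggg
Psmb10: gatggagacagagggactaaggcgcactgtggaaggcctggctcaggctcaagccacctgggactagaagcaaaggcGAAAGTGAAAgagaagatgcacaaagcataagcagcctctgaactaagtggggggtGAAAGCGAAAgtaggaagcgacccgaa
Tap1: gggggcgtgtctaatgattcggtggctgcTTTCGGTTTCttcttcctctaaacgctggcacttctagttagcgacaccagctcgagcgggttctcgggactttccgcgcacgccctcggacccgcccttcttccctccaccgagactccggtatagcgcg
Tap2: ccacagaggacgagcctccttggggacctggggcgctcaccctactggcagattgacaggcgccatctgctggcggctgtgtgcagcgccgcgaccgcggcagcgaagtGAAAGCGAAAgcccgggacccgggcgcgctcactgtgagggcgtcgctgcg
Psmb5: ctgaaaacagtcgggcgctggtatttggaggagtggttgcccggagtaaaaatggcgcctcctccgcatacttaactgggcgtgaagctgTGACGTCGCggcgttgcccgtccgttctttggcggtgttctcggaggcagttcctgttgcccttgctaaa
Psmb6: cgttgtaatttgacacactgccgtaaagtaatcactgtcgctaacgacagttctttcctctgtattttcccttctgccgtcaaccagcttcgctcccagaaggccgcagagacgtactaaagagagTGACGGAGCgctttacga
Psmb7: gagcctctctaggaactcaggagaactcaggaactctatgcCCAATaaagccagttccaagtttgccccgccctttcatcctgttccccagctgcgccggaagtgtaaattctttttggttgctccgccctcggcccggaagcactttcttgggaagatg

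GAAANNGAAA was found in 7 of the 41 proteasome promoters: Psma4, Psmb3, Psmb8, Psmb10, Psmd7, Psme2 and Psmg4. It occurred in 3.92% of all 33469 RefSeq promoters of that length. Psmb8 held it on the opposite strand at bases -4 to 6, counted from 1 at the annotated start with no base 0. Psmb10 held it in 2 places, at -73 to -64 and at -17 to -8. Tap1 held it at -121 to -112 and Tap2 at -41 to -32, while the Psmb9 window contained no match. The Psmb9 and Tap1 starts face away from each other, 457 bases apart. The gamma-activated site TTCNNNGAA occurred in 4 proteasome promoters, Psmb8 among them, and in 8.87% of all. TGACNNNGC, bound by Nfe2l1 and Nfe2l2, occurred in 7, including Psmb5 and Psmb6, and in 12.1% of all promoters. CCAAT occurred in 20 of 41 and in 37.5% of all. These are matches of letters and say nothing of binding in these rats.

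The libraries differed widely in composition. The digestive enzyme list took 74.8% and 71.8% of TPM in the controls, 67.3% in TP 1, 58.6% and 53.7% in TP+hucMSC-Exs, and 18.2% in TP 2. TPM sums to the same fixed total in every library. Relative to the control mean of log2(TPM + 0.5), the median of 11477 tested genes stood at 0.00 in TP 1, 3.00 in TP 2, and 0.97 and 1.22 in TP+hucMSC-Exs 1 and 2. TP 2 also stood apart by its summed adipocyte markers, 3558 TPM against 15.3 to 34.4 TPM in the other 5 libraries, and by 4296 TPM of fibroblast markers against 29.5 to 145 TPM. Values are therefore given per library. In whole tissue, a change in the number of cells of a type and a change in RNA per cell cannot be told apart.

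Proteasome transcripts were a small part of the pancreas transcriptome, between 0.0309% of TPM in Control 1 and 0.483% in TP 2. The 45 genes summed to 309 and 467 TPM in the controls, 463 and 4832 TPM in TP, and 1005 and 1325 TPM in TP+hucMSC-Exs. TP 1 was thus at the level of Control 2, both TP+hucMSC-Exs libraries were above the controls, and TP 2 was above all. Group means were 388 ± 111, 2648 ± 3089 and 1165 ± 226 TPM (SD, n = 2 each). On the log2(TPM + 0.5) scale, the median proteasome gene differed from the control mean by 0.25 in TP 1, 3.61 in TP 2, 1.37 in TP+hucMSC-Exs 1 and 1.74 in TP+hucMSC-Exs 2. After the median gene of each library was subtracted, 0.24, 0.60, 0.39 and 0.52 remained. Counted gene by gene, 37, 41, 41 and 42 of the 45 were above the median gene in these 4 libraries, where 50% of all genes are by construction. These counts were made only with the filter, the added 0.5 and the scaling used here. The size of the excess changed with each of these, as given below.

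**Figure D1:**
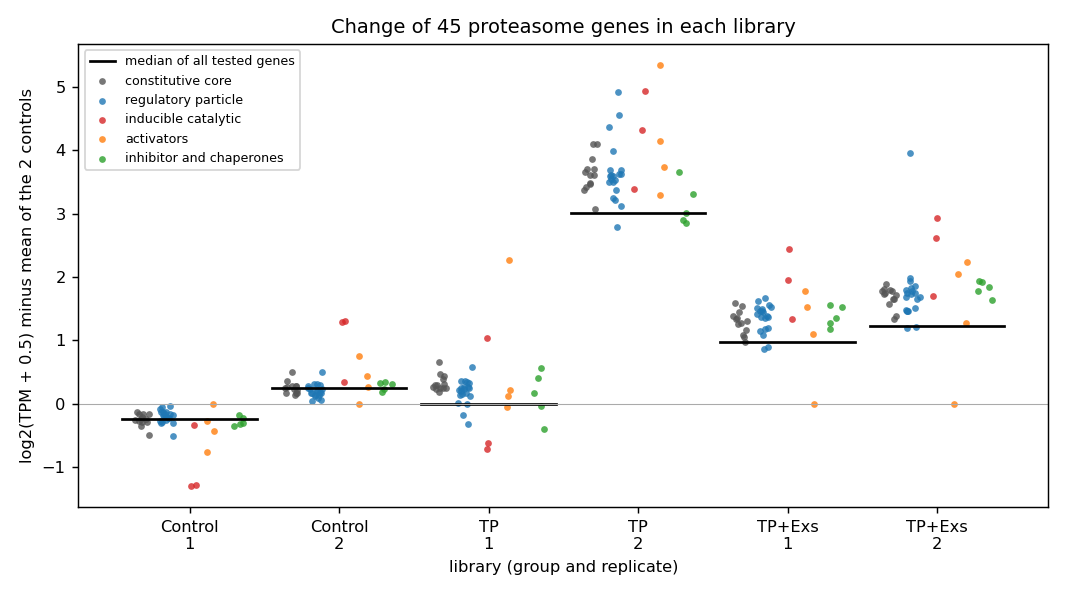
Each point is 1 of the 45 proteasome genes in 1 library; the vertical axis is log2(TPM + 0.5) minus the mean of the 2 controls, and the black line is the median of all tested genes in that library. TP+Exs stands for TP+hucMSC-Exs. The points lie around the line in the controls and mostly above it in the other 4 libraries, with Psmb8 and Psmb9 (red) lowest of all in Control 1 and TP 1.

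None of the 45 passed limma's test at an adjusted p of 0.05 in any of the 3 comparisons, which share libraries. For TP+hucMSC-Exs minus Control the median log2 fold change was 1.55 over the 45 genes and 1.09 over all tested genes; the count called higher was 0 of 45, against 0.209% of all genes, and the lowest adjusted p was 0.80 (limma). For TP minus Control the medians were 1.92 and 1.495, with 0 of 45 called against 0.0523% of all genes and a lowest adjusted p of 0.56 (limma). For TP+hucMSC-Exs minus TP the medians were both -0.38, with 0 of 45 called higher or lower against 0.0523% and 0.0174% of all genes. At an unadjusted p under 0.05, 1 of 45 passed in each comparison: Psme3 in the 2 comparisons with TP, and Psmd10 in TP+hucMSC-Exs minus Control. Psme3 was listed at 0 in every library outside TP, so it passed the filter on mean TPM only through TP. Over all genes the same limit was passed by 4.06%, 2.95% and 1.32% in TP minus Control, TP+hucMSC-Exs minus Control and TP+hucMSC-Exs minus TP. These tests share 1 spread over the 3 groups, which the difference between TP 1 and TP 2 widens. Limma drew that spread from genes of similar level. The unadjusted p of Psmd10 therefore does not reflect the 5.47-fold difference between its 2 TP+hucMSC-Exs libraries.

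The calls changed with the libraries used. With only the 4 libraries of TP+hucMSC-Exs and Control in the fit, 41 of 45 were higher (91.1%), against 52.3% of all genes; Psmb8, Psmd5, Psmd9 and Psme3 were the exceptions. The same 4 genes were not called when only TP 1 or only TP 2 was left out, beside 52.1% and 51.9% of all genes called higher. Without TP 1, 45 of 45 were higher in TP than in Control, against 91.5% of all genes, and 42 were lower in TP+hucMSC-Exs than in TP, against 79.5%. Without TP 2, only Psme3 was called in either of these: higher in TP than in Control, against 0.174% of all genes, and lower in TP+hucMSC-Exs than in TP, against 0.174%. The single TP library left in those fits is assumed to vary like the other groups. For Psme3 that library, TP 1, had 1.90 TPM against a listed 0 in every library outside TP. Because Psme3 passed the filter only through TP, its call is not an independent test of a change.

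Both TP+hucMSC-Exs libraries exceeded both controls in TPM for 44 of 45 genes, against 86.9% of all tested genes, and both TP libraries did so for 25, against 23.1%. Relative to the median gene of each library, 40 of 45 were above both controls in TP+hucMSC-Exs, against 34.6% of all genes; Psmb3, Psmb8, Psmd5, Psmd9 and Psme3 were not. In TP, 30 of 45 were above both controls on that scale, against 17.3%. Other scalings of the libraries lowered the TP+hucMSC-Exs count to 14 of 45 with median-of-ratios (30.8% of all genes) and 25 of 45 with quantile normalization (27.6%). The excess of the median proteasome gene over the median tested gene in TP+hucMSC-Exs minus Control, 0.45 with an SD of 0.06 between libraries, was 0.13 with median-of-ratios, 0.28 with quantile normalization and 0.22 among genes of at least 5 TPM. Between TP+hucMSC-Exs and TP, 10 of 45 did not overlap in the higher direction and 5 in the lower on the median-gene scale, against 21.5% and 19.9% of all genes.

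Alpha subunits, which form the outer rings of the core and its gate, differed from control by similar amounts. Psma7, the most abundant of them, was at 23.4 and 32.8 TPM in the controls, 33.1 and 292 TPM in TP and 71.3 and 93.8 TPM in TP+hucMSC-Exs. Its log2 fold change for TP+hucMSC-Exs minus Control was 1.54 with an SE of 1.31. The 6 alpha genes ranged in that comparison from 1.37 for Psma1 (7.19 and 10.9 TPM in the controls, 11.1 and 122 in TP, 19.4 and 28.8 in TP+hucMSC-Exs) to 1.70 for Psma4. Psma4 was at 5.60 and 6.79 TPM in the controls, 9.96 and 114 TPM in TP, and 19.6 and 22.8 TPM in TP+hucMSC-Exs. For these 3 genes TP 1 was above both controls, by the widest margin in Psma4, and the other 3 injured libraries were further above. The SE near 1.4 belongs to the change of 1 gene between groups and does not measure a difference between genes. Limma drew it from a spread shared by genes of similar level. Differences among members were not tested.

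Structural beta subunits, the inner-ring members without a cutting site, had log2 fold changes of 1.18 to 1.55 in TP+hucMSC-Exs minus Control, against 1.37 to 1.70 for the alpha subunits. Psmb4 had the highest mean TPM of all 45 genes, with 22.2 and 32.3 TPM in the controls, 36.5 and 304 TPM in TP and 65.2 and 88.7 TPM in TP+hucMSC-Exs. Psmb1 was at 14.7 and 22.1, 22.3 and 205, and 45.6 and 63.9 TPM in the same order. Psmb3, at 14.2 and 18.0, 18.2 and 208, and 31.7 and 42.7 TPM, had the smallest change of the core for TP+hucMSC-Exs minus Control, 1.18 with an SE of 1.36. Its value was -0.27 with median-of-ratios scaling, so that its direction depends on the scaling.

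The constitutive catalytic subunits had levels in the range of the structural subunits. Psmb5, which carries the chymotrypsin-like site, was at 19.5 and 27.6 TPM in the controls, 30.6 and 198 TPM in TP, and 48.9 and 59.6 TPM in TP+hucMSC-Exs. Psmb6, with the caspase-like site, was at 10.9 and 14.9, 17.8 and 172, and 38.1 and 44.96 TPM. Psmb7, with the trypsin-like site, was at 14.7 and 18.8, 19.9 and 208, and 40.4 and 53.6 TPM. In each of the 3, TP 1 lay just above Control 2 and the TP+hucMSC-Exs libraries lay above both controls without overlap. Log2 fold changes for TP+hucMSC-Exs minus Control were 1.20 for Psmb5, 1.66 for Psmb6 and 1.46 for Psmb7, with SEs of 1.33 to 1.36 and adjusted p of 0.80 (limma). That of Psmb5 turned to -0.25 under median-of-ratios and to -0.039 under quantile normalization.

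The genes classed as regulatory particle, Psmd chaperones included, stayed near a fixed proportion of the core. The ratio of their summed TPM to that of the 13 constitutive core genes was 0.621 and 0.570 in the controls, 0.543 and 0.635 in TP, and 0.644 and 0.638 in TP+hucMSC-Exs. Both TP+hucMSC-Exs libraries were above the other 4, by a small margin over TP 2. The mean was 0.641 ± 0.00404 in TP+hucMSC-Exs against 0.595 ± 0.0364 in Control (SD, n = 2 each; exact two-sided permutation p = 0.333, the smallest that 2 against 2 allows). Relative to the median gene, the 20 regulatory genes had medians of 0.22 and 0.59 in TP and 0.43 and 0.49 in TP+hucMSC-Exs, against 0.29, 0.61, 0.34 and 0.51 for the constitutive core.

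Among the ATPases, Psmc3 was the most abundant, at 10.6 and 13.5 TPM in the controls, 13.3 and 153 TPM in TP, and 33.4 and 41.3 TPM in TP+hucMSC-Exs. Psmc6 was the least abundant, at 1.17 and 1.51, 2.24 and 22.1, and 5.12 and 6.16 TPM, and had the largest change of the 6 for TP+hucMSC-Exs minus Control, 1.74 with an SE of 1.43. Psmc5, at 8 and 10.6, 10.2 and 119, and 20.1 and 26.2 TPM, had the smallest, 1.27. Its TP 1 value lay between the controls, as did that of Psmc3, whereas TP 1 exceeded both controls for Psmc6.

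The 14 genes classed as non-ATPase subunits had log2 fold changes of 1.02 to 2.82 in TP+hucMSC-Exs minus Control. Both ends of this range, Psmd9 and Psmd10, are assembly chaperones that carry a Psmd symbol. Psmd10, also called gankyrin, a chaperone of regulatory particle assembly that also binds the retinoblastoma protein, was at 0.64 and 0.71 TPM in the controls, 0.85 and 35.2 TPM in TP, and 3.25 and 17.8 TPM in TP+hucMSC-Exs. The TP+hucMSC-Exs pair differed by 5.47-fold, where the median proteasome gene differed by 1.29-fold. Its log2 fold change for TP+hucMSC-Exs minus Control was 2.82 with an SE of 1.43 and an adjusted p of 0.80 (limma); it ranged from 1.67 without TP+hucMSC-Exs 2 to 3.96 without TP+hucMSC-Exs 1. Psmd2, the large scaffold of the base and the most abundant of the class, was at 6.38 and 9.01, 8.88 and 128, and 20.6 and 26.6 TPM. Psmd9, an assembly chaperone, was at 1.29 and 1.98, 1.19 and 26.7, and 3.32 and 4.30 TPM, and had the smallest change, 1.02 with an SE of 1.43. Psmd14, the deubiquitinase of the lid, was at 0.91 and 2.34, 1.91 and 46.7, and 5.38 and 5.17 TPM, a 2.57-fold difference between the controls.

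The inducible subunits separated the libraries in another way: Psmb8 and Psmb9 were low in Control 1 and TP 1 and higher in the other 4. Psmb8 was at 1.56 and 12.1 TPM in the controls, 2.80 and 155 TPM in TP, and 19.2 and 30.6 TPM in TP+hucMSC-Exs. Psmb9 was at 1.30 and 10.2, 2.18 and 86.9, and 23.4 and 33.1 TPM. Both were therefore lower in TP 1 than in Control 2, unlike all 3 of their constitutive counterparts. That order was not particular to them, as Psma2, Psmb2, Psmc3, Psmc5 and other members were also lower in TP 1 than in Control 2. Psmb10 did not share this order, at 9.45 and 15.3, 25.1 and 131, and 31.2 and 40.0 TPM, with TP 1 above both controls.

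**Figure D2:**
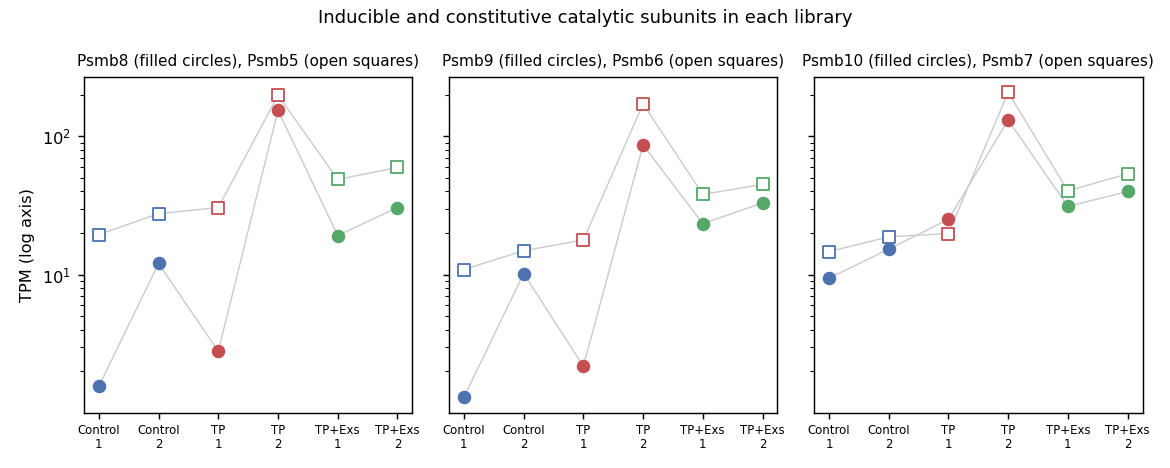
TPM on a log axis in each of the 6 libraries for each inducible subunit (filled circles) and the constitutive subunit it replaces (open squares); lines join the points of 1 gene. Psmb8 and Psmb9 drop to 2.80 and 2.18 TPM in TP 1, below Control 2, while Psmb5, Psmb6, Psmb7 and Psmb10 do not.

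The 2 control rats, given the same operation, differed 7.85-fold in Psmb9 and 7.74-fold in Psmb8. The next members were Psme1 at 2.98-fold and Psmd14 at 2.57-fold; the median of 44 proteasome genes was 1.44-fold, the lowest was 1.08-fold for Psmd4, and the median of all genes above 0 in Control 1 was 1.67-fold. In TP, Psmb8 and Psmb9 again differed between the rats by 55.2-fold and 39.9-fold, where the median proteasome gene differed by 10.6-fold and the median of all genes by 11.6-fold. In TP+hucMSC-Exs the pair differed by 1.59-fold in Psmb8 and 1.41-fold in Psmb9.

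**Figure D3:**
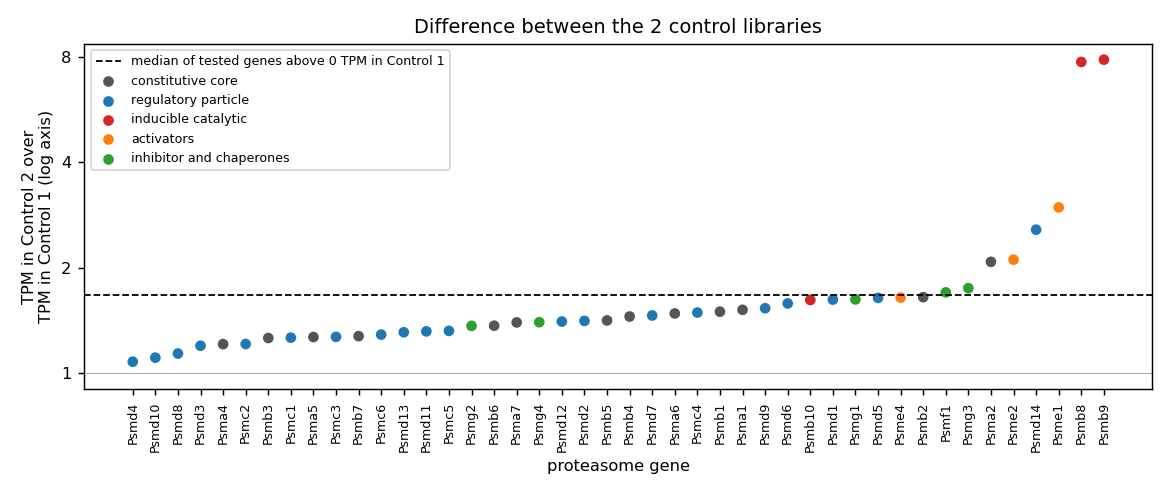
Ratio of TPM in Control 2 to TPM in Control 1 on a log axis for the 44 proteasome genes above 0 in Control 1, ordered by ratio and coloured by class; the dashed line is the median of all tested genes above 0 in Control 1. Psmb8 and Psmb9 stand at 7.74 and 7.85, and most constitutive genes lie between 1.08 and 1.67.

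Leukocyte markers were, like Psmb8 and Psmb9, lowest in Control 1 and TP 1 for the general, T-cell, B-cell and macrophage lists, but the order of the other 4 libraries differed between lists. The 5 general leukocyte genes, all detected in every library, summed to 1.94 and 63.7 TPM in the controls, 7.75 and 549 TPM in TP, and 46.1 and 75.0 TPM in TP+hucMSC-Exs. T-cell genes (5 of 6 listed were found) summed to 0.02 and 35.9, 0.46 and 33.7, and 2.15 and 2.87 TPM; 4 of the 5 were at 0 in Control 1 and 2 in TP 1, Cd3d and Cd3e in both. B-cell genes (5 of 5) summed to 6.55 and 150 TPM in the controls, 12.8 and 548 TPM in TP, and 29.4 and 38.5 TPM in TP+hucMSC-Exs, mostly from Cd74. General leukocyte, T-cell and B-cell genes were thus higher in Control 2 than in TP+hucMSC-Exs 1, whereas Psmb8 and Psmb9 were lower. Macrophage genes (7 of 7) summed to 17.7 and 141, 53.8 and 4561, and 402 and 749 TPM, and neutrophil genes (5 of 5) to 0.50 and 3.00, 2.99 and 479, and 56.7 and 103 TPM. The part of leukocytes in the difference was not tested.

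**Figure D4:**
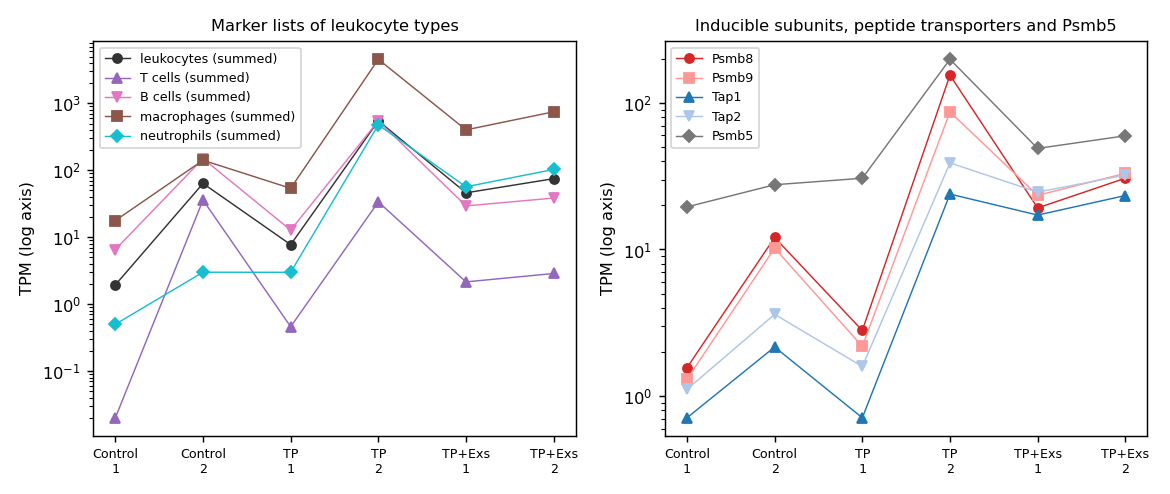
Left, summed TPM of 5 leukocyte marker lists in each library; right, TPM of Psmb8, Psmb9, Tap1, Tap2 and, for comparison, Psmb5; both axes are logarithmic. Control 1 and TP 1 are the lowest libraries for the general leukocyte genes (1.94 and 7.75 TPM), for Psmb8 and for Psmb9, but TP 1 is not low for Psmb5 (30.6 TPM).

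For TP+hucMSC-Exs minus Control, log2 fold changes were 2.28 for Psmb8, 2.69 for Psmb9 and 1.51 for Psmb10. Their SEs were 1.41, 1.42 and 1.37, and all had an adjusted p of 0.80 (limma). The similar SEs come from a spread shared by genes of similar level. They do not reflect that the controls differed 7.74-fold in Psmb8 and 7.85-fold in Psmb9 but 1.62-fold in Psmb10. The values depended on the controls: without Control 1 they were 0.98 for Psmb8 and 1.40 for Psmb9, and without Control 2, 3.59 and 3.98. Within a library, a ratio does not depend on how that library was scaled. Psmb8 over Psmb5 was 0.0800 and 0.437 in the controls, 0.0915 and 0.780 in TP, and 0.393 and 0.513 in TP+hucMSC-Exs. Psmb9 over Psmb6 was 0.119 and 0.684, 0.122 and 0.505, and 0.614 and 0.735. Psmb10 over Psmb7 was 0.642 and 0.814, 1.27 and 0.631, and 0.772 and 0.746.

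In the first of these ratios the TP+hucMSC-Exs libraries lay within the range of the controls or just above Control 2, in the second around Control 2, and in the third between the controls. TP 1 was the single library in which Psmb10 exceeded Psmb7. Group means for Psmb9 over Psmb6 were 0.402 ± 0.399 in Control, 0.314 ± 0.271 in TP and 0.674 ± 0.0860 in TP+hucMSC-Exs (SD, n = 2 each). Of 18 ratio comparisons over 6 ratios, 4 reached 0.333, the smallest exact two-sided permutation p for 2 against 2, and all 18 were at 1 after Benjamini-Hochberg adjustment. TP+hucMSC-Exs against TP in Psmb9 over Psmb6 was one of the 4, at a log2 difference of 1.31, which was 0.42 without TP 1 and 2.21 without TP 2.

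**Figure D5:**
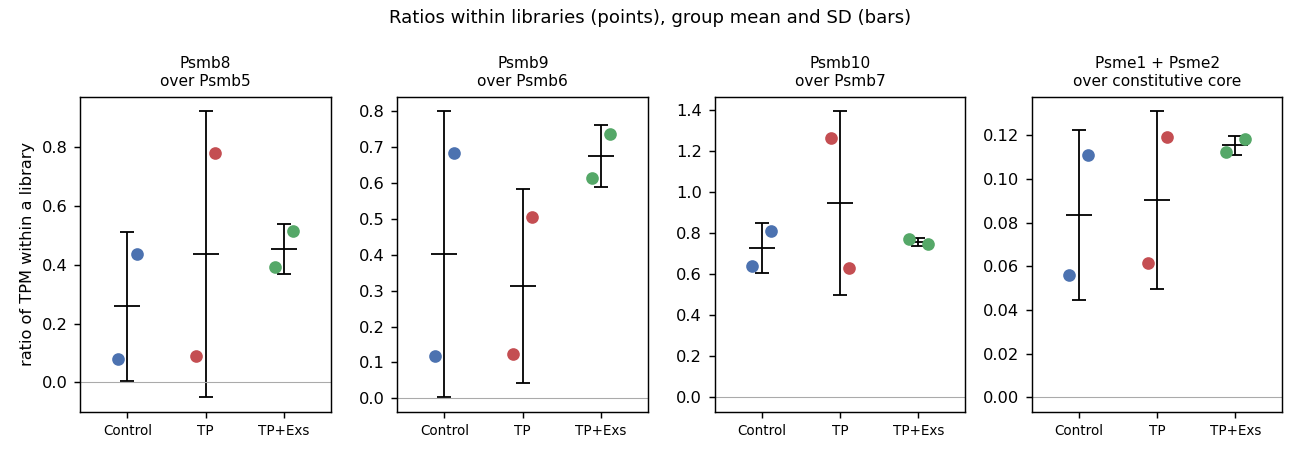
Ratio of TPM within each library for the 3 catalytic pairs and for Psme1 plus Psme2 over the 13 constitutive core genes; points are libraries, horizontal bars are group means and error bars are SD (n = 2 per group). The 2 TP+hucMSC-Exs libraries lie close together in every panel, while Control and TP libraries lie apart, for example at 0.0800 and 0.437 for Psmb8 over Psmb5 in Control.

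Activators open the gate of the core without ubiquitin. Psme1, an interferon-responsive activator subunit, was at 7.89 and 23.5 TPM in the controls, 13.2 and 252 TPM in TP, and 48.3 and 66.1 TPM in TP+hucMSC-Exs. Its partner Psme2 was at 1.43 and 3.02, 2.32 and 34.3, and 7.04 and 10.3 TPM. For both, TP 1 lay between the controls and TP+hucMSC-Exs lay above them. Their sum over the constitutive core was 0.0561 and 0.111 in the controls, 0.0617 and 0.119 in TP, and 0.112 and 0.118 in TP+hucMSC-Exs, so that Control 1 and TP 1 were again the low pair. Log2 fold changes for TP+hucMSC-Exs minus Control were 2.01 for Psme1 and 1.79 for Psme2, with SEs of 1.35 and 1.43.

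Psme4, a nuclear activator linked to histone turnover, was at 1.13 and 1.86 TPM in the controls, 1.77 and 18.8 TPM in TP, and 3.68 and 4.23 TPM in TP+hucMSC-Exs. Psme3, which forms a nuclear activator of its own, had a listed value of 0 in Control 1, Control 2 and the TP+hucMSC-Exs pair, and of 1.90 and 19.8 TPM in TP. Only 5 of the 34001 genes were listed at 0 in those 4 libraries and above 1 TPM in both TP libraries. A 0 in a table without counts can be a failed estimate, and no fold is given. The inhibitor Psmf1, which binds the core and competes with activators, was at 1.92 and 3.27, 2.90 and 23.7, and 6.33 and 9.81 TPM, with a log2 fold change of 1.47 and an SE of 1.43 for TP+hucMSC-Exs minus Control.

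The chaperones Psmg1 to Psmg4, which assemble the alpha ring, had a lower median in TP 2 than any other class of more than 1 gene. Relative to the median gene, their median was 0.18 in TP 1 and 0.10 in TP 2, against 0.47 and 0.66 in TP+hucMSC-Exs 1 and 2. Psmg4, the most abundant, was at 8.07 and 11.3 TPM in the controls, 14.4 and 74.5 TPM in TP, and 29.2 and 37.7 TPM in TP+hucMSC-Exs, and its 5.19-fold difference between the TP rats was the smallest of the 45. Psmg2 was at 1.88 and 2.57, 1.55 and 19.0, and 6.01 and 7.87 TPM. All 4 were higher in both TP+hucMSC-Exs libraries than in both controls, as were 86.9% of all tested genes.

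Genes that work with the proteasome gave 0 calls by limma in each of the 3 comparisons, in 4 lists: partners (9 of 10 genes found), ubiquitin and shuttle genes (15 of 15), regulators of proteasome genes (9 of 9) and peptide loading with interferon regulators (15 of 17 tested). At an unadjusted p under 0.05, the lists had 0, 1, 0 and 2 genes in TP+hucMSC-Exs minus Control. Their medians in that comparison, less that of all tested genes, were 0.22, 0.27, 0.30 and 0.69, against 0.45 for the 45 proteasome genes. Pomp, the maturation factor of the core and the most abundant partner, was at 29.7 and 26.9 TPM in the controls, 37.1 and 319 TPM in TP, and 65.6 and 77.3 TPM in TP+hucMSC-Exs. Adrm1, a ubiquitin receptor of the regulatory particle, was at 8.04 and 10.1, 8.60 and 84.6, and 21.9 and 26.5 TPM. Nfe2l1, which drives transcription of proteasome genes when proteasome activity is short, was at 2.02 and 2.91, 2.29 and 31.8, and 7.34 and 7.32 TPM.

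Ubb, a ubiquitin precursor gene, was at 534 and 776 TPM in the controls, 700 and 4929 TPM in TP, and 1669 and 2129 TPM in TP+hucMSC-Exs. Of the immune genes, Irf1, a transcription factor that acts on the inducible subunits, was at 0.77 and 3.97, 2.13 and 39.4, and 7.41 and 11.9 TPM, and was lowest in Control 1. Nlrc5, the activator of MHC class I genes, had a mean under the limit of 1 TPM and ranged from 0.02 to 3.37 TPM over the 6 libraries, and Ifng was listed at 0 in all 6.

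Tap1 and Tap2, the neighbours of Psmb8 and Psmb9, were the peptide loading genes with the largest change in TP+hucMSC-Exs. Tap1 was at 0.71 and 2.16 TPM in the controls, 0.71 and 23.9 TPM in TP, and 17.2 and 23.3 TPM in TP+hucMSC-Exs. Tap2 was at 1.11 and 3.61, 1.59 and 39.0, and 24.6 and 32.2 TPM. Log2 fold changes for TP+hucMSC-Exs minus Control were 3.52 and 3.48, unadjusted p 0.014 and 0.015, and neither passed limma's adjusted threshold (adjusted p = 0.80). Duct-cell markers were highest in the 2 TP+hucMSC-Exs libraries, at a summed 127 and 171 TPM against 12.8 to 17 TPM in the other 4. TP 2 was among these 4, yet had the highest Tap1 and Tap2 levels, Tap1 by a small margin. The part of duct cells in the Tap1 and Tap2 levels was not tested.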

How the data were processed

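Pancreas RNA from 6 rats was made into libraries with a SMARTer mRNA-Seq kit, per the labels. The authors deposited gene-level TPM, in which each library sums to 1000000, so that sequencing depth is unknown and no counting error can be given. Mouse builds, GRCm38 and mm10, appear in the submitters' processing notes although most identifiers are rat Ensembl. The aligner and annotation were not given in the sources used here.

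Genes with a mean of at least 1 TPM (11477) were transformed to log2(TPM + 0.5), a scale that compresses changes of low genes. A linear model with 1 mean per group was fitted to all 6 libraries with limma 3.58.1 (trend, 3 residual degrees of freedom) and adjusted by Benjamini-Hochberg at 0.05. The model was tested on simulated data with noise drawn gene by gene. That test did not cover a shift shared by most genes of a library, as in TP 2. Proteasome genes entered this fit with all others. They, the gene lists, the tests and the named genes were chosen with earlier results of these data known. Named genes were the catalytic pairs, activators and inhibitor and, per other class, those of highest mean TPM and of largest and smallest change in TP+hucMSC-Exs minus Control; Psmd14 and members singled out by a count or range were named after values were seen. Values of 2 list genes are not reported here. Ratios were compared by exact permutation over libraries. With 2 rats per group, limma drew the spread of each gene almost wholly from a trend over genes of similar level. Its SEs and p-values therefore do not measure the spread of the single gene between the 2 rats of a group. Alternatives were other pseudocounts, filters, scalings, a model without trend, a fit of only 2 groups, a replicate block, and leaving out each library.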

Additional observations from a re-analysis of the deposited data

How the results depend on the processing

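In the numbers that follow, a median means the median log2 change of a class less that of all tested genes. Genes called over all numbered 6 in TP minus Control, 8 in TP+hucMSC-Exs minus TP and 24 in TP+hucMSC-Exs minus Control. In the first they numbered 14 with a pseudocount of 0.1, 0 without a filter, with median-of-ratios, with quantile normalization or with only the groups compared, and 2 after digestive enzymes were taken out and TPM rescaled. In the second they numbered 0 without a filter or with quantile normalization, 4 rescaled, 2 with median-of-ratios and 1 with only the groups compared. In the third they numbered 12 with a pseudocount of 1, 0 without a filter or with quantile normalization, 7 rescaled, 2 with median-of-ratios and 6056 with only the groups compared, 41 of them proteasome genes. Leaving out 1 library gave 0 to 10706, 0 to 9537 and 1 to 6031 genes, and 0 to 45, 0 to 42 and 0 to 41 proteasome genes, with the largest counts where a TP library was left out. Elsewhere limma called 0 proteasome genes.

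For TP minus Control the median of all proteasome genes, 0.43, was 0.81 without a filter, 0.23 rescaled, 0.19 with median-of-ratios and 0.24 with quantile normalization; that of the constitutive core, 0.46, was 0.28 with a pseudocount of 0.1, 0.85 without a filter, 0.29 at 5 TPM, 0.26 rescaled, 0.21 with median-of-ratios and 0.26 with quantile normalization. The regulatory particle, 0.39, was at 0.77 without a filter and 0.16 with median-of-ratios. The assembly chaperones, 0.19, were at 0.042 and 0.29 with pseudocounts of 0.1 and 1, 0.57 without a filter, 0.018 at 5 TPM, 0.027 rescaled, -0.0075 with median-of-ratios and 0.0070 with quantile normalization.

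For TP+hucMSC-Exs minus Control, in the order pseudocount 0.1, pseudocount 1, no filter, 5 TPM, rescaled, median-of-ratios and quantile normalization, the median of all proteasome genes, 0.45, was 0.23, 0.59, 0.87, 0.22, 0.21, 0.13 and 0.28. The constitutive core, 0.39, was at 0.15, 0.57, 0.81, 0.16, 0.13, 0.058 and 0.28, and the regulatory particle, 0.46, at 0.23, 0.60, 0.88, 0.22, 0.22, 0.14 and 0.26. The activators, 0.39, were at 0.81 without a filter and 0.25 with median-of-ratios or quantile normalization. The chaperones, 0.57, were at 0.38 with a pseudocount of 0.1, 0.99 without a filter, 0.33 at 5 TPM, 0.36 rescaled, 0.28 with median-of-ratios and 0.36 with quantile normalization. Leaving out 1 library gave, for TP minus Control, 0.24 to 0.60 for all proteasome genes, 0.29 to 0.61 for the core, 0.22 to 0.59 for the regulatory particle, 0.16 to 0.94 for activators, 0.10 to 0.20 for chaperones and -0.63 to 1.32 for the inducible subunits. For TP+hucMSC-Exs minus Control it gave 0.39 to 0.52, 0.34 to 0.51, 0.36 to 0.50, 0.24 to 0.47, 0.47 to 0.66 and 0.34 to 2.23 in the same order. For TP+hucMSC-Exs minus TP it gave -0.17 to 0.11 for the core, -0.092 to 0.20 for the regulatory particle and 0.0032 to 1.81 for the inducible subunits.

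Members of TP above both controls numbered 17 with median-of-ratios (17.7% of all genes) and 7 rescaled (11.2%) instead of 30 (17.3%); those of TP+hucMSC-Exs numbered 14 with median-of-ratios (30.8%) and 25 with quantile normalization (27.6%) instead of 40 (34.6%). These scalings were applied to this count after the data were seen. The change of single genes in TP+hucMSC-Exs minus Control turned negative under median-of-ratios and quantile normalization for Psmb5 (-0.25 and -0.039), Psme4 (-0.026 and -0.066), Psma1 (-0.057 and -0.017), Psmb3 (-0.27 and -0.15), Psmc5 (-0.15 and -0.10) and Psmd9 (-0.20 and -0.23). Median-of-ratios and quantile normalization moved the median of all genes in that comparison from 1.09 to 0.00 and -0.07. Of the 45 genes 34 were then higher, instead of 44. The cause was not tested.

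The labels do not say that a replicate number marks a shared litter or day, so the numbers were not taken as pairs. Deviations from group means correlated at 0.28 between Control and TP, 0.08 between Control and TP+hucMSC-Exs and 0.14 between TP and TP+hucMSC-Exs. With the replicate block 10, 22 and 35 genes were called in the 3 comparisons, and 0 proteasome genes in each. With 2 rats per group and no depth in TPM, counting error cannot be given, and each proteasome change in TP+hucMSC-Exs minus Control lay within 2 SE of 0.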

Other observations

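The transporter genes and the inducible subunits beside them did not keep one proportion, a comparison chosen after the values were seen. Tap2 over Psmb8 was 0.712 and 0.299 in the controls, 0.568 and 0.252 in TP, and 1.28 and 1.05 in TP+hucMSC-Exs. Tap1 over Psmb9 was 0.546 and 0.212, 0.326 and 0.275, and 0.733 and 0.706. In both ratios the 2 TP+hucMSC-Exs libraries were above the other 4. Psmb9 over Psmb8, 0.833 and 0.846 in the controls, 0.779 and 0.562 in TP, was 1.22 and 1.08 in TP+hucMSC-Exs.

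Sqstm1, a ubiquitin receptor of autophagy, was the single gene of the ubiquitin list under an unadjusted p of 0.05 in TP+hucMSC-Exs minus Control. It was at 17.6 and 23.1 TPM in the controls, 20.9 and 148 TPM in TP, and 116 and 137 TPM in TP+hucMSC-Exs. The TP+hucMSC-Exs libraries thus came near TP 2 for Sqstm1, whereas for the summed proteasome genes they had 1005 and 1325 TPM against 4832 TPM in TP 2.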
